A study of Cricetiscus sungorus with 16 samples.

Results

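Described here are 10 genes known for their roles in the ovary, most of them in its supporting and steroid-producing cells. They are 9 transcription factors, Nr5a1, Nr5a2, Nr0b1, Foxl2, Gata4, Gata6, Wt1, Foxo1 and Foxo3, and the secreted signal Wnt4. They were found by transcript identifier, which the files give beside each probe, a rule that uses no measured value. The genes themselves were chosen with earlier results of these data known. All 10 identifiers were among the 33272 on the array, with 14 probes between them. All 10 were among the 20143 identifiers that passed the filter on dim signal.

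Ovaries came from female Siberian hamsters, which breed by season and mature at a pace set by day length. Some animals were gestated and kept in long days (LD), with light for 16 h a day, and the others in short days (SD), with light for 10 h. Their ovaries were collected at 3 wk or at 8 wk of age. Each of the 4 groups held 4 hamsters, and the RNA of both ovaries of each hamster went to its own array, 16 arrays in all. For the short-day animals at 8 wk the labels conflict, with 16 h of light in the title and treatment fields and 10 h in the description. They were taken here as short-day animals with 10 h of light. No strain is named, and no animal carried a transgene or received an agent, as far as the labels say. The series' design text asks how ovaries of both day lengths differ at each age, and how the ovary changes between the ages in each day length.

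The nuclear receptors Nr5a1 (SF-1) and Nr5a2 (LRH-1) bind the promoters of steroid synthesis genes, and Nr0b1 (DAX-1) lacks their usual DNA-binding domain and represses them. Gata4 and Gata6 are zinc-finger factors that act with Nr5a1 on the same promoters, and Wt1 is a zinc-finger factor of the gonadal ridge that persists in cells of small follicles. Foxl2 holds granulosa cells, which surround the oocyte, to their female identity, and Wnt4 signals through beta-catenin on the same side of sex determination. Foxo1 and Foxo3 are forkhead factors that the kinase Akt sends out of the nucleus, and in mice Foxo3 keeps resting follicles dormant from within the oocyte.

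Each level below is a log2 intensity from which the 75th percentile of the same array was subtracted, and its error is the standard deviation (s.d.) over hamsters. Brightness depends on the probe, so levels of different probes are not compared. The array was made for mouse transcripts, and whether each probe reported the matching hamster transcript was not tested. No gene symbols come with the identifiers, so the label of the tissue could not be set against markers of its cell types. In whole ovaries, fewer cells that make a transcript and less of it per cell cannot be told apart.

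Slides differed from each other. The intensity at the 75th percentile was 269 to 370 on slide 1 and 736 to 1007 on slides 2 to 4, and an array had 58.0% to 75.7% of its probes well above background. Each of the 4 slides held 1 array of every group, which allows differences to be read within a slide, but a group always had the same place on the slide. Place and group therefore cannot be told apart. The probe used for each gene was well above background on all 16 arrays for 9 of the 10 genes, and for Foxo3 on 14. No spot was saturated.

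**Figure D1:**
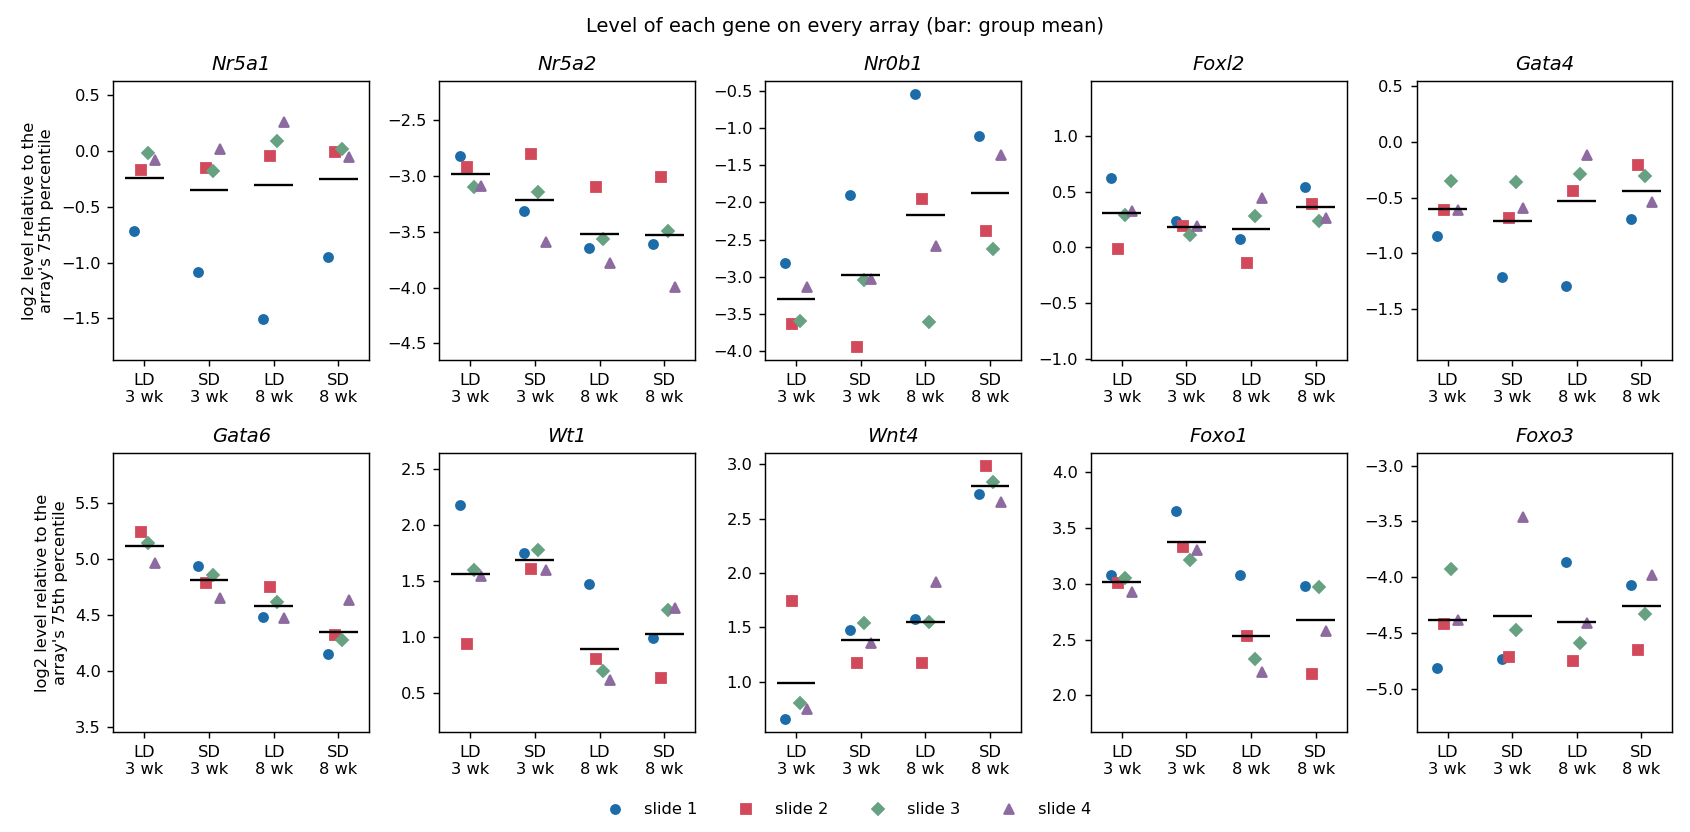
Log2 level relative to the array's 75th percentile for each of the 10 genes, with a point for every array by slide and a bar at the group mean; the vertical range differs between panels. The 4 short-day arrays at 8 wk stand above all other Wnt4 arrays, while the points of Nr5a1 and Gata4 part mainly by slide, with slide 1 lowest in every group. The point of Gata6 for long days at 3 wk on slide 1 is missing because that spot was flagged as an outlier.

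Between day lengths at 8 wk, Wnt4 was 2.37-fold higher in short days, as 0.735% of identifiers were, and no other gene of the set passed. Between 3 and 8 wk in short days Wnt4 rose 2.67-fold (4.77% of identifiers rose) and Foxo1 fell 1.62-fold (4.38% fell). In long days none of the 10 passed between these ages, and none passed between day lengths at 3 wk. These calls are from limma over all 20143 identifiers at an adjusted p under 0.05, a threshold that 0.958% of identifiers passed for day length at 8 wk, 9.15% for age in short days, 2.98% for age in long days and 0% for day length at 3 wk.

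Arrays of the same slide deviated together, and a fit with slide as a block made more calls. With the block the age change passed for 5 genes in short days (23.1% of identifiers) and for 3 in long days (11.9%). For day length the block fit passed Wnt4 alone at 8 wk (2.62%, of which 1.82% higher in short days) and no gene at 3 wk (0%). The genes added in short days were Nr0b1, which was higher at 8 wk, and Gata6 and Wt1, which were lower. In these directions the calls of all identifiers were 10.9% and 12.2%. Those added in long days were Nr5a2, Gata6 and Wt1, each lower at 8 wk, where 7.96% of identifiers passed in that direction.

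**Figure D2:**
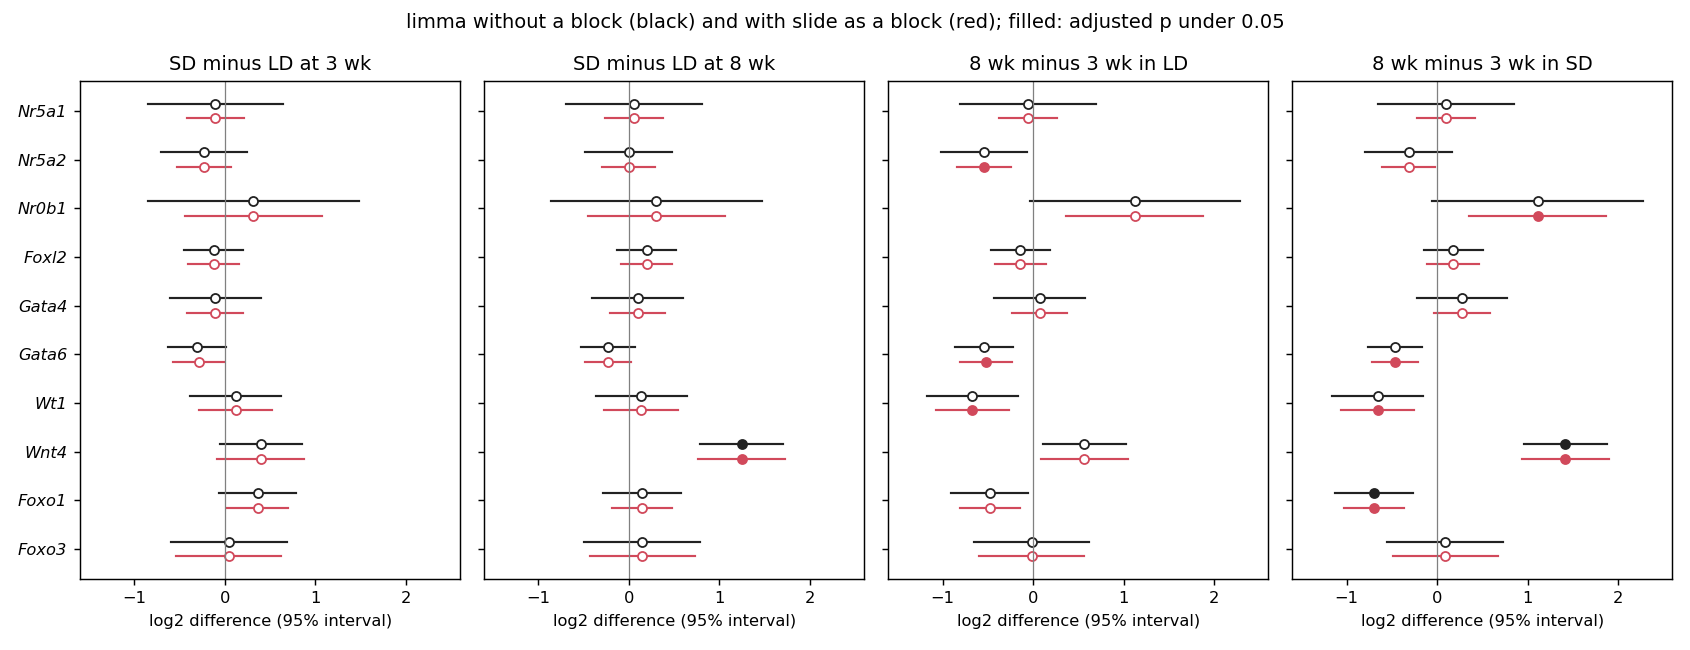
Log2 difference with its 95% interval for each gene in the 4 pairwise comparisons, from limma without a block (black) and with slide as a block (red); filled points passed at an adjusted p under 0.05. Wnt4 passed in both fits for day length at 8 wk (1.25) and for age in short days (1.42), and the block narrowed most intervals of the other genes.

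Nr5a1 (NM_139051), the receptor that switches on steroid synthesis genes, differed by slide and little by group. Its levels on slides 1 to 4 were −0.71, −0.17, −0.02 and −0.08 in long days at 3 wk and −1.08, −0.16, −0.18 and 0.02 in short days. At 8 wk they were −1.51, −0.05, 0.09 and 0.26 in long days and −0.95, −0.01, 0.02 and −0.05 in short days. Slide 1 was lowest in every group, and the 4 groups overlapped. The slide held 87.7% of the variance of Nr5a1 and the group 0.794%. Group means lay within 0.10 of each other, and no difference passed. With the block the 95% intervals of its pairwise differences ran from −0.42 to 0.42 (log2) at the widest, so a 2-fold difference lay outside all 4.

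Nr5a2 (NM_030676), which in mice serves ovulation and the corpus luteum, was lower at 8 wk in both day lengths, and the difference passed only in long days with the block. On slides 1 to 4 it stood at −2.82, −2.92, −3.10 and −3.09 in long days at 3 wk and at −3.65, −3.10, −3.57 and −3.78 at 8 wk. In short days it stood at −3.31, −2.80, −3.15 and −3.59 at 3 wk and at −3.61, −3.01, −3.49 and −3.99 at 8 wk. The 2 ages did not overlap in long days, where the nearest arrays stood at −3.097 and −3.099, and overlapped in short days. In long days the difference was −0.54 (SE 0.23, limma adjusted p = 0.279), or with the block the same size (SE 0.14, limma adjusted p = 0.0227). It ran from −0.82 to −0.18 within slides. In short days it was −0.31 (SE 0.23, limma adjusted p = 0.523), from −0.41 to −0.20 within slides. Normexp, another background correction, was applied to median signals without spots of outlier background, and 50 was added to each signal. With it the long-day value was −0.12 (limma adjusted p = 1.0, the highest over alternative settings). How far the added 50 shrinks differences of dim probes was not tested. The day lengths had means of −3.52 ± 0.30 and −3.53 ± 0.41 at 8 wk (s.d., n = 4), a difference with a 95% interval from −0.48 to 0.48.

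Nr0b1 (NM_007430), the repressor of Nr5a1, had the largest age difference of the set in long days and the widest spread, with a residual s.d. of 0.88. In long days it stood on slides 1 to 4 at −2.81, −3.64, −3.60 and −3.13 at 3 wk and at −0.54, −1.96, −3.60 and −2.59 at 8 wk. In short days it stood at −1.90, −3.95, −3.04 and −3.03 at 3 wk and at −1.10, −2.38, −2.63 and −1.36 at 8 wk. The ages overlapped in both day lengths, and slide 1 gave the highest level in each group. The age difference was 1.12 in long days (2.18-fold, SE 0.55, limma adjusted p = 0.400) and 1.11 in short days (2.16-fold, SE 0.55, limma adjusted p = 0.277). With the block it passed in short days (SE 0.35, limma adjusted p = 0.0364) and missed in long days (SE 0.35, limma adjusted p = 0.0553). Within slides it lay between 0.41 and 1.67 in short days and between −0.00 and 2.27 in long days. Leaving out single arrays moved the difference between 0.58 and 1.60 in long days, lowest without the slide 1 array at 8 wk and highest without the slide 3 array at 8 wk, and between 0.79 and 1.47 in short days. Without slide 1 it was 0.74 in long days, and with normexp, which here adds 50 to each signal, it was 0.71 in both day lengths.

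Foxl2 (NM_012020), the factor that holds granulosa cell identity, stayed within narrow limits. Its levels on slides 1 to 4 were 0.62, −0.02, 0.29 and 0.32 in long days at 3 wk and 0.24, 0.19, 0.11 and 0.19 in short days. At 8 wk they were 0.08, −0.14, 0.28 and 0.44 in long days and 0.54, 0.39, 0.24 and 0.26 in short days. The short-day arrays at 8 wk all lay above those at 3 wk, by a mean of 0.18 (SE 0.15, limma adjusted p = 0.633). The nearest of them stood at 0.238 at 3 wk and at 0.240 at 8 wk. All neighbours in the order of the means overlapped. No difference passed with the block either. Means lay between 0.16 and 0.36, and the widest 95% limits of a pairwise difference were −0.47 and 0.52, inside a 2-fold change.

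Gata4 (NM_008092), partner of Nr5a1 on steroid synthesis promoters, followed the slide. It stood on slides 1 to 4 at −0.85, −0.61, −0.35 and −0.61 in long days and at −1.21, −0.68, −0.36 and −0.59 in short days at 3 wk. At 8 wk it stood at −1.29, −0.44, −0.29 and −0.12 in long days and at −0.70, −0.21, −0.31 and −0.54 in short days. All 4 groups overlapped, slide 1 was lowest in each, and the slide held 66.4% of the variance against 9.85% for the group. The largest pairwise difference was 0.27, between ages in short days (SE 0.24, limma adjusted p = 0.629), and it was above 0 on 4 of 4 slides. A further probe of Gata4, printed in 10 spots, did not stand well above background on any of the 16 arrays.

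Gata6 (NM_010258), the second GATA factor of these cells, was lower at 8 wk than at 3 wk. On slides 2, 3 and 4 it stood at 5.25, 5.14 and 4.97 in long days at 3 wk, with slide 1 left out as an outlier spot. On slides 1 to 4 it stood at 4.94, 4.79, 4.86 and 4.65 in short days at 3 wk, at 4.48, 4.75, 4.62 and 4.47 in long days at 8 wk and at 4.15, 4.32, 4.28 and 4.64 in short days at 8 wk. By this brightest probe the ages did not overlap in either day length, and at 3 wk all measured long-day arrays lay above the short-day arrays. The means fell in the order long days then short days at 3 wk, then long days and short days at 8 wk, from 5.12 to 4.35. Only the first step, from long to short days at 3 wk, parted the arrays, by a difference of −0.31 that did not pass (SE 0.15, limma adjusted p = 1.0).

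The age difference of Gata6 was −0.54 in long days (SE 0.15, limma adjusted p = 0.0716) and −0.46 in short days (SE 0.14, limma adjusted p = 0.0507). With the block both passed, at −0.52 (SE 0.13, limma adjusted p = 0.0246) and −0.46 (SE 0.12, limma adjusted p = 0.0146). Within slides it ran from −0.53 to −0.50 in long days on the 3 slides measured, and from −0.78 to −0.02 in short days. Over alternative settings the adjusted p ran from 0.0246 to 0.199 in long days and from 0.0146 to 0.478 in short days, on both sides of the threshold. Without the block it passed in short days when the slide 1 array of either long-day group or the slide 4 short-day array at 8 wk was left out (limma adjusted p 0.0267 to 0.0485). The long-day arrays lie outside this comparison, so the change stayed at −0.46 without either of them. The one at 3 wk had no measured Gata6 level.

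Other probes of Gata6 gave differences that varied in size and, for the dimmest, in sign. The next brightest, measured on all 16 arrays, had means of 3.49 ± 0.44 and 3.06 ± 0.34 in long and short days at 3 wk, and 2.97 ± 0.31 and 2.78 ± 0.25 at 8 wk (s.d., n = 4). Its difference between day lengths at 3 wk was −0.43, which did not pass (SE 0.23, limma adjusted p = 1.0). Its age difference was −0.53 in long days, which passed with the block (limma adjusted p = 0.0139 over 24617 probes), and −0.28 in short days, which did not (0.111). The dimmest probe gave −0.25 and 0.19, with intervals from −0.98 to 0.92 over both. The mean over the 3 probes differed by −0.43 in long days and −0.18 in short days between ages.

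Wt1 (NM_144783), read by a probe printed in 10 spots, was also lower at 8 wk. In long days it stood on slides 1 to 4 at 2.18, 0.94, 1.60 and 1.54 at 3 wk and at 1.47, 0.80, 0.69 and 0.62 at 8 wk. In short days it stood at 1.75, 1.61, 1.77 and 1.60 at 3 wk and at 0.99, 0.63, 1.24 and 1.26 at 8 wk. The ages were separate in short days, and in long days they overlapped through the slide 2 array at 3 wk and the slide 1 array at 8 wk. The difference was −0.67 in long days (1.59-fold, SE 0.24, limma adjusted p = 0.174) and −0.66 in short days (1.57-fold, SE 0.24, limma adjusted p = 0.107). With the block both passed (SE 0.19, limma adjusted p = 0.0361 and 0.0234), and the gene was lower at 8 wk on 4 of 4 slides in each day length. Without the slide 2 long-day array at 3 wk the long-day difference was −0.88 and passed without the block (limma adjusted p = 0.0449, and 0.0361 to 0.441 over alternative settings). Between day lengths Wt1 differed by 0.12 at 3 wk and 0.13 at 8 wk, neither of which passed.

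Wnt4 (NM_009523), the secreted ligand, had the clearest pattern of the set. In long days it stood on slides 1 to 4 at 0.65, 1.74, 0.81 and 0.75 at 3 wk and at 1.57, 1.18, 1.55 and 1.92 at 8 wk. In short days it stood at 1.47, 1.17, 1.54 and 1.36 at 3 wk and at 2.72, 2.99, 2.84 and 2.65 at 8 wk. The 4 short-day arrays at 8 wk lay above the 12 others, and the other 3 groups overlapped with their neighbours in order of means, which was long days at 3 wk, short days at 3 wk and long days at 8 wk. The group held 86.1% of its variance and the slide 0.637%.

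At 8 wk the mean of Wnt4 was 1.55 ± 0.30 in long days and 2.80 ± 0.15 in short days (s.d., n = 4), a difference of 1.25 (SE 0.22, limma adjusted p = 0.00668, or 0.00872 with the block). It was higher in short days on 4 of 4 slides, by 0.73 to 1.81. By p-value Wnt4 was in place 85 of the 20143 identifiers in this comparison, and in place 151 by size of rise. Groups did not overlap at 8 wk for 4.11% of identifiers, with short days above for 2.18%. At 3 wk Wnt4 differed by 0.40 (SE 0.22, limma adjusted p = 1.0, 95% interval −0.06 to 0.85), and was higher in short days on 3 of 4 slides.

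With age Wnt4 rose in short days from 1.38 ± 0.16 to 2.80 ± 0.15 (s.d., n = 4), by 1.42 (SE 0.22, limma adjusted p = 0.000599). The rise on single slides was 1.25 to 1.82. Over 28 alternative settings this change stayed between 1.34 and 1.47 and the difference at 8 wk between 1.12 and 1.37, each past the threshold in all 28 (limma adjusted p 8.29e-05 to 0.00349 and 0.000921 to 0.0408). The filters, the mean over probes, the block and leaving out arrays of other groups could not move these sizes. Wnt4 was read by 1 probe in 1 spot, so no second probe could be set beside it. In long days its mean was 0.99 ± 0.51 at 3 wk and 1.55 ± 0.30 at 8 wk (s.d., n = 4), a difference of 0.57 that did not pass (SE 0.22, limma adjusted p = 0.219, or 0.124 with the block). That value turns on the slide 2 array at 3 wk, whose level of 1.74 stood far above the other 3 at 0.65 to 0.81. Without it the long-day difference was 0.82 and passed (SE 0.17, limma adjusted p = 0.0151, and 0.0151 to 0.473 over alternative settings), and with it the gene was higher at 8 wk on 3 of 4 slides.

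Whether the age change of Wnt4 differed between day lengths was tested as an interaction. The short-day change exceeded the long-day change by 0.85 (SE 0.30), which did not pass after adjustment over all identifiers (limma adjusted p = 1.0, or 0.473 with the block). The excess was above 0 on 4 of 4 slides, from 0.13 to 2.38, and was 0.60 without the slide 2 long-day array at 3 wk. Of all identifiers 0.0596% passed this test, or 0.174% with the block, and no gene of the set did in either fit. At an unadjusted limma p under 0.05 it was 1 of the 10, Wnt4, in both fits, against 614 and 1713 of all identifiers.

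**Figure D3:**
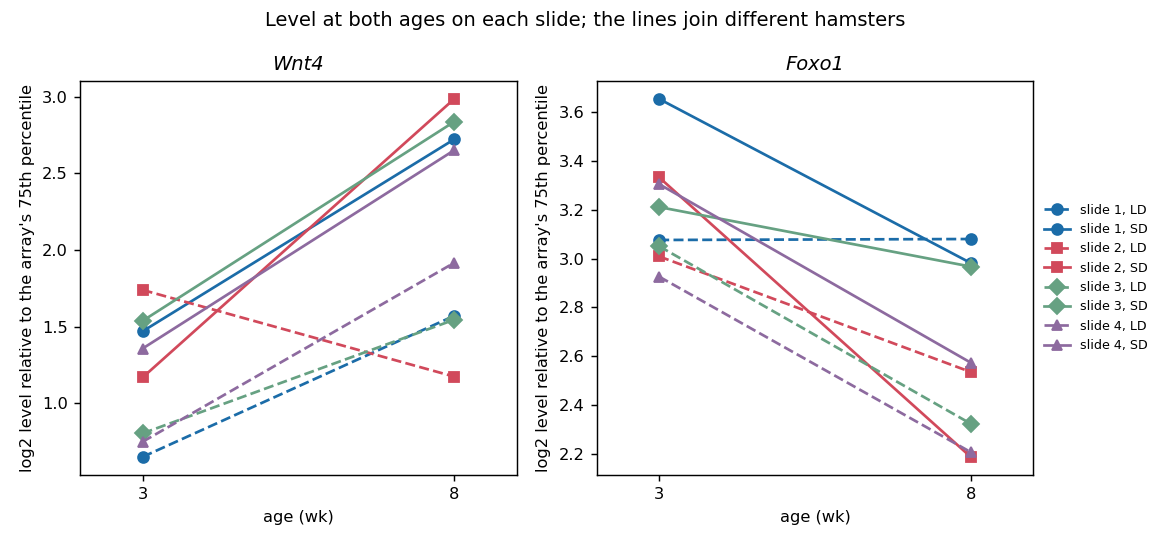
Log2 level of Wnt4 and Foxo1 at 3 and 8 wk (horizontal axis) on each slide, with short days as solid lines and long days as dashed lines; the ends of a line are different hamsters. The short-day Wnt4 lines climb by 1.25 to 1.82 on all 4 slides, the slide 2 long-day line runs downward, and the short-day Foxo1 lines drop by values from 0.24 to 1.15 in size.

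Foxo1 (NM_019739), a forkhead factor abundant in granulosa cells of growing follicles, fell with age in short days. There it stood on slides 1 to 4 at 3.65, 3.33, 3.21 and 3.31 at 3 wk and at 2.98, 2.19, 2.97 and 2.57 at 8 wk, with no overlap. In long days it stood at 3.08, 3.01, 3.05 and 2.93 at 3 wk and at 3.08, 2.54, 2.32 and 2.21 at 8 wk. There the ages overlapped through slide 1 alone, where both arrays stood at 3.08.

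The short-day change of Foxo1 was −0.70 (SE 0.20, limma adjusted p = 0.0399, or 0.00595 with the block), and from −1.15 to −0.24 within slides. Without the block this call lies close to the threshold. It was lost on leaving out any of 10 of the 16 arrays (limma adjusted p 0.0512 to 0.147). These were all 4 short-day arrays at 3 wk and the short-day arrays of slides 2 and 4 at 8 wk. The others were the long-day arrays of slides 2, 3 and 4 at 3 wk and of slide 2 at 8 wk. These long-day arrays lie outside the comparison, so the change stayed at −0.70 without them (limma adjusted p 0.0512 to 0.0532). Single arrays were left out only in fits without the block. Over the 16 arrays left out in turn the change lay between −0.80 and −0.53. In long days the difference was −0.48 (SE 0.20, limma adjusted p = 0.287), and without slide 1 it was −0.64 and passed (SE 0.17, limma adjusted p = 0.0438, and 0.0438 to 0.552 over alternative settings). The short-day change differed from the long-day change by −0.22 (SE 0.29), an interaction that did not pass with or without the block.

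At 3 wk all 4 short-day arrays of Foxo1 lay above the long-day arrays, at means of 3.38 ± 0.19 and 3.02 ± 0.07 (s.d., n = 4), a separation found for 1.71% of identifiers in either direction and for 0.377% in this one. The difference of 0.36 did not pass (SE 0.20, limma adjusted p = 1.0), and it was above 0 on 4 of 4 slides. At 8 wk the day lengths overlapped and differed by 0.14 (95% interval −0.29 to 0.57).

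A dimmer probe of Foxo1 had means of 0.01 ± 0.35 and 0.25 ± 0.55 in long and short days at 3 wk, and −0.65 ± 0.59 and −0.31 ± 0.37 at 8 wk (s.d., n = 4). On this probe the ages overlapped in both day lengths, and so did the day lengths at 3 wk. Its age difference was −0.56 in short days (SE 0.31, limma adjusted p = 0.341 over all probes) and −0.66 in long days (SE 0.31, limma adjusted p = 0.372). With the block both passed, at adjusted p of 0.0132 and 0.0115. The mean over both probes changed by −0.63 in short days and missed the threshold (limma adjusted p = 0.124).

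**Figure D4:**
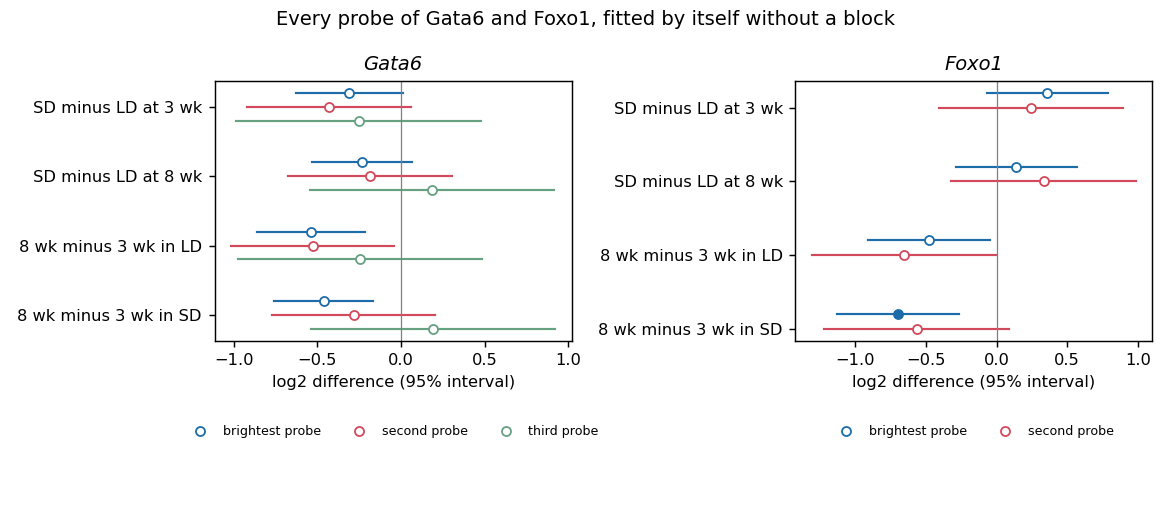
Log2 difference with its 95% interval for each probe of Gata6 (3 probes) and Foxo1 (2 probes), fitted singly without a block; the filled point passed. Both Foxo1 probes and the brighter 2 Gata6 probes lie below 0 for age in both day lengths, and the third Gata6 probe lies at −0.25 in long days and 0.19 in short days.

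Foxo3 (NM_019740), the factor of resting follicles, was not well above background on the slide 1 array of either day length at 3 wk. On slides 1 to 4 it stood at −4.81, −4.42, −3.93 and −4.38 in long days and at −4.73, −4.72, −4.47 and −3.46 in short days at 3 wk. At 8 wk it stood at −3.87, −4.75, −4.59 and −4.41 in long days and at −4.07, −4.65, −4.33 and −3.98 in short days. The groups overlapped throughout, and the means lay between −4.40 and −4.26. The slide held 29.8% of its variance, the group 2.32% and the rest 67.9%. No difference passed, and the 95% intervals of the pairwise differences reached from −0.66 to 0.79.

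Set side by side, the age differences in long and short days were −0.54 and −0.31 for Nr5a2, 1.12 and 1.11 for Nr0b1, −0.54 and −0.46 for Gata6, −0.67 and −0.66 for Wt1, 0.57 and 1.42 for Wnt4, and −0.48 and −0.70 for Foxo1. They were 0.07 and 0.27 for Gata4, and had opposite signs at −0.06 and 0.10 for Nr5a1, −0.14 and 0.18 for Foxl2, and −0.02 and 0.09 for Foxo3. The median over the 10 genes was −0.10 in long days and 0.10 in short days, against −0.04 and 0.00 over all identifiers. Between day lengths it was −0.03 at 3 wk and 0.14 at 8 wk, against −0.05 and −0.01. At an unadjusted limma p under 0.05 the counts were 0 of the 10 for day length at 3 wk (330 of all 20143 identifiers), 1 at 8 wk (1397), 5 for age in long days (2703) and 4 for age in short days (4103). With the block these counts were 2 at 3 wk (1298), Gata6 and Foxo1, 1 at 8 wk (2847), 6 for age in long days (5218) and 6 for age in short days (6936).

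Non-overlapping ages were found for 5 of the 10 genes in short days, with Wnt4 and Foxl2 above and Gata6, Wt1 and Foxo1 below. Of all identifiers 15.9% were so parted in short days, 8.12% above and 7.83% below. In long days this held for Nr5a2 and Gata6, both lower at 8 wk (8.71% of identifiers in either direction and 5.27% in this one). Between day lengths at 3 wk it held for Foxo1, higher in short days, and for Gata6, lower in short days as 1.33% of identifiers were. These separations are those of the brightest probe, and on the other probes of Gata6 and Foxo1 the same groups overlapped. For Nr5a2 in long days and Foxl2 in short days the nearest arrays of both ages were almost level. For 9 of the 10 genes the 95% interval at 3 wk lay within 2-fold, as it did for 84.9% of all identifiers.

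**Figure D5:**
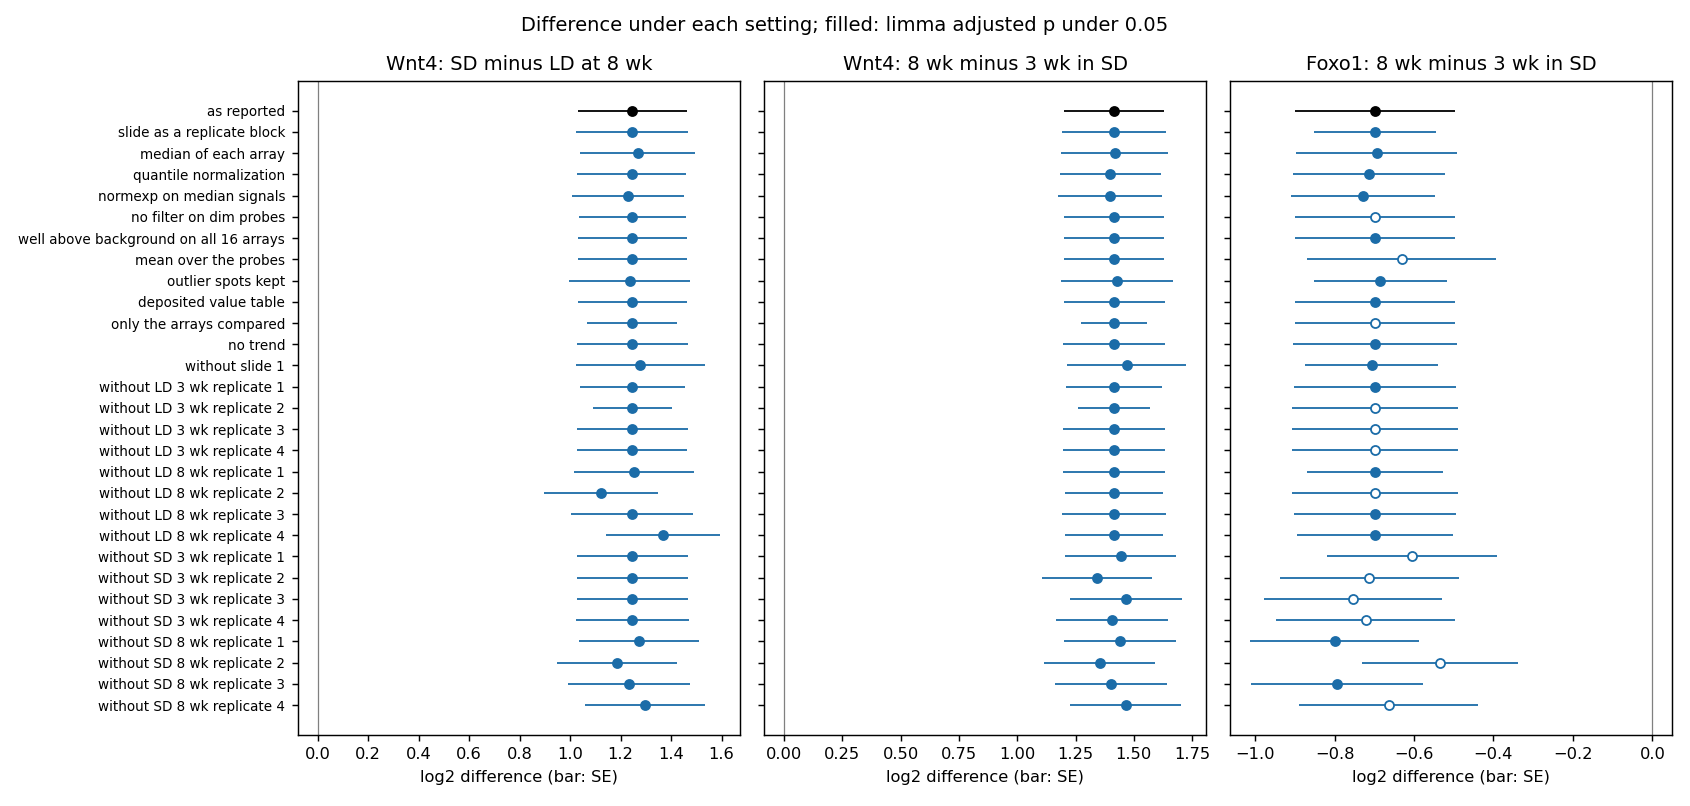
Log2 difference with its standard error for Wnt4 between day lengths at 8 wk, Wnt4 between ages in short days and Foxo1 between ages in short days, as reported and under 28 alternative settings; filled points passed in limma. All points of both Wnt4 panels are filled, and 13 of the 28 alternative Foxo1 points are open.

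The identifiers whose levels ran most like those of Wnt4 and Foxo1 were sought by Pearson correlation over arrays after each slide's mean was removed. Of the 20143, the 10 genes themselves and identifiers sharing fewer than 12 measured arrays with the gene were left out. The arrays share slides and the search took the highest values, so these are descriptions. NM_030880 ran closest to Wnt4 (r = 0.95 over 14 arrays), with a rise of 1.34 in short days and a difference of 1.1 between day lengths at 8 wk. NM_009804 followed (r = 0.95 over 16 arrays), with a rise of 1.78 in short days and a difference of 1.49 at 8 wk. NM_013837 ran closest to Foxo1 (r = 0.95 over 15 arrays), with a short-day age difference of −0.46. NM_178644 followed (r = 0.94 over 16 arrays), with a short-day age difference of −1.08 that did not pass (limma adjusted p = 0.231).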

How the data were processed

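Per the labels' protocols, total RNA was amplified, labelled with Cy3 and hybridised, 1 hamster per array. The labels give each sample an animal code of its own, so hamsters are the replicates. Per the file headers, the authors extracted spots with Agilent Feature Extraction 10.5.1.1. The deposited scanner files hold linear, background-corrected intensity, not normalized between arrays. They also flag outlier spots and spots well above background. A value table deposited by the authors repeats that intensity, rounded and not centred (column medians 28.8 to 104), and 4 cells of 1 column differed by over 0.5%.

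Intensities were taken as log2 minus the array's 75th percentile, without control and outlier spots, spots of a probe averaged. Probes were kept when some group had all 4 arrays well above background (24998 of 41174) and when 12 or more arrays, 2 or more in every group and slide, had a measured spot. The brightest probe stood for each identifier. Differences were fitted with limma 3.58.1 in R 4.3.3 over all 16 arrays, with an intensity trend and Benjamini-Hochberg adjustment over 20143 identifiers. Slide as a fixed block was the alternative. Replicate numbers are slide numbers from the file headers, and all 24 pairs of arrays on a slide deviated from their group means together (correlation 0.23 at the lowest, median 0.45), so slides pair the arrays. Slides 3 and 4 were scanned on the same day and the others on days of their own. The number of arrays limits the precision.

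The genes and lists were chosen with earlier results of these data known. The rule was to describe each of the 10 with all its probes, and to name the identifiers most like each. The files do not pair identifiers with symbols: members are named from their identifiers, most-alike identifiers are given for Wnt4 and Foxo1 only, the gene lists and cell type markers could not be matched, and no sequence was used here.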

Additional observations from a re-analysis of the deposited data

Results flagged for a closer look

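The levels of each gene in each group were checked for an array far from the other 3, in 39 groups that had 4 measured arrays. An array was picked out where its gap to the nearest other array, divided by the range of the group, was above the 95% critical value of Dixon's test, which chance passes in about 1 of 20 groups. It happened in 2 of the 39 groups, about as many as that rate gives. Wnt4 was picked out in long days at 3 wk, where the slide 2 array stood at 1.74 and the others between 0.65 and 0.81. Nr5a1 was picked out in short days at 8 wk, where the slide 1 array stood at −0.95 and the others between −0.05 and 0.02. That Nr5a1 array belongs to the slide that was lowest for this gene in all 4 groups.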

How the results depend on the processing

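The 5 counts of genes and the 50 gene differences were recomputed under 28 alternative settings, 16 of which left out a single array. Normexp fitted without outlier spots, and fits of single probes, were chosen after seeing the data. The normexp fit was changed because normexp over all spots failed. Wnt4 kept both calls throughout, and no value that passed changed sign. The count of genes called with age in long days was 0 as reported (2.98% of all identifiers). It was 3 with slide as a replicate block (11.9%), 1 with quantile normalization (3.79%) and 2 without slide 1 (6.19%). When single arrays were left out it was 0 to 2 (1.15% to 3.39%). In short days the count was 2 as reported (9.15% of all identifiers) and 5 with the replicate block (23.1%). It was 1 without the filter on dim probes (4.54%) and 1 with the mean over the probes (8.94%). It was 3 with quantile normalization (10.6%) and 3 with the filter of all 16 arrays (10.1%), where Gata6 was added (limma adjusted p = 0.0460). When single arrays were left out it was 1 to 3 (5.65% to 10.9%). The block changed no call of Wnt4 or Foxo1. The short-day fall of Foxo1 also missed without the filter (limma adjusted p = 0.0584) and with only the arrays compared (0.0648). With only those arrays Wt1 passed in short days (0.0361), and Gata6 passed with quantile normalization in long days (0.0451) and short days (0.0332). Over all identifiers the calls for day length at 8 wk, age in long days, age in short days and the interaction were 193, 601, 1844 and 12. They were 528, 2394, 4655 and 35 with the block, and without slide 1 they were 201, 1246, 2865 and 4. With only the arrays compared the first 2 were 82 and 220, and with outlier spots kept age in long days gave 935. Leaving out single arrays gave 118 to 241, 232 to 682, 1139 to 2201 and 6 to 49. Foxo3 could not be tested with a filter of all 16 arrays, and the interaction has no value with only the arrays compared. The cause of these shifts was not tested.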
